A study of Sus scrofa with 24 samples.

Results

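Colon RNA from sows fed a low-fibre diet with N-carbamylglutamate (LN) was compared with colon RNA from sows fed a high-fibre diet without it (HF). The comparison rests on 6 of the 24 libraries of the series, 3 for each diet, chosen by their diet and tissue labels. LN held 3.73% crude fibre and 0.05% N-carbamylglutamate (NCG), and HF held 7.46% crude fibre and no NCG, so the diets differ in both components at once. The low-fibre diet alone (LF, 3.73% crude fibre) and the high-fibre diet with 0.05% NCG (HN, 7.46% crude fibre) gave 3 colon libraries each, which here inform the spread between libraries. The same diets were sampled in the ileum. All sows were female pigs fed from breeding through a gestation of 114 days, in groups of 100 sows. Age and breed, and whether each library is 1 sow or a pool, are not given in the sources used here, so p-values measure only the spread between these libraries.

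NCG is a stable analogue of N-acetylglutamate, the molecule that switches on carbamoyl phosphate synthetase (CPS1) and so starts citrulline and arginine synthesis from ammonia. Dietary fibre reaches the colon largely undigested and is fermented there to short-chain fatty acids, which colonocytes oxidise as fuel. The series title names PI3K-Akt signalling, a kinase pathway through which growth factors drive protein synthesis and survival, so its genes are described along with epithelial, metabolic, clock and immune genes.

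The colon libraries held between 14843272 and 18575695 assigned read counts. Of the 12 defining markers of colon epithelium, 10 were measured, and the lowest value of any of them in the 6 libraries was 47.1 CPM (read counts divided by the TMM-adjusted library size). The muscle content of the LN libraries was uneven. Averaged over 20 smooth muscle genes, log2 CPM was 11.08 in LN 1 and 10.17 in LN 2 but 6.20 in LN 3, beside 6.37, 6.83 and 6.80 in HF 1 to HF 3. LN 1 and LN 2 thus carried far more muscle RNA than any HF library, and LN 3 carried less. Of the other diets, LF 2 and HN 1 held little epithelial RNA. Their colonocyte genes summed to 276 and 569 CPM, against 10400 to 23810 CPM across LN and HF. Their goblet cell genes summed to 331.5 and 358 CPM, against 4452 to 16180 CPM. Both libraries enter the estimate of spread. Across all tested genes, the log2 CPM of LN 3 correlated with the HF libraries at r between 0.961 and 0.969, while the LN libraries correlated with each other at 0.913 to 0.963. Gene length also separated the groups: the slope of log2 CPM on log2 gene length was -0.0076 to 0.0908 in LN and -0.173 to -0.0639 in HF, taken relative to the mean of the 12 colon libraries.

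No gene passed an adjusted p of 0.05 between LN and HF among the 15075 tested (0.000%; edgeR's quasi-likelihood test on all 12 colon libraries, smallest adjusted p 0.593). At an unadjusted p under 0.05 there were 1196 genes (7.93%), where 754 would fall under it with no difference. Of these, 887 (5.88%) were higher with LN and 309 (2.05%) higher with HF, a split that became 697 to 455 under DESeq2-style size factors and 738 to 431 under upper quartile scaling. Over all tested genes, 7993 (53.0%) had a positive difference and 7082 (47.0%) a negative one, the background for the list counts below. All 3 LN libraries lay above all 3 HF libraries for 2327 genes (15.4%) and below them for 2053 (13.6%). With each gene simulated independently at this depth and spread, the test called 36% of 100 genes changed 4-fold and 0% of 100 changed 2-fold. The changed genes had a mean log2 CPM above 0, and the simulation held no shift in muscle or epithelial content shared by many genes. These shares therefore need not hold for the real libraries. All log2 differences below are LN minus HF from this fit, and none of the genes named has an adjusted p under 0.05 in it.

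The calls depended on the estimate of spread. Fitted on the 6 LN and HF libraries alone, edgeR called 181 of 14512 genes (1.25%), 172 (1.19%) higher with LN and 9 (0.0620%) higher with HF, with 3788 (26.1%) at an unadjusted p under 0.05. DESeq2 on the 12 libraries called 47 of 15075 genes, 22 higher with LN and 25 higher with HF. It gave no adjusted p to 1179 genes. The methods shared 8 calls. With LF 2 and HN 1 left out, a choice made after seeing the data, edgeR gave 2859 genes an unadjusted p under 0.05. In that fit 0 genes passed an adjusted p of 0.05. The muscle actin ACTG2 and the muscle filament gene DES were among the DESeq2 calls, each with an adjusted p of 0.0435. So were the muscle genes ACTA1, CKM and ACTN2, named after their values were seen. ACTA1 had the smallest adjusted p by DESeq2, with an extreme DESeq2 log2 difference of 24.8.

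The genes with the smallest p among those higher with LN were mostly long. The guanine nucleotide exchange factor gene DOCK10 (chromosome 15, 126435577 to 126711755, reverse strand, Sscrofa11.1) stood at 31.6, 51.4 and 46.2 CPM in LN and 12.8, 17.5 and 19.2 CPM in HF. The chromatin reader BRWD3 (chromosome X, 64239640 to 64403889, reverse strand) stood at 24.03, 25.9 and 27.7 CPM in LN and 10.6, 11.5 and 9.91 CPM in HF. Neither gene overlapped between the diets, and LN 3 lay with LN 1 and LN 2 for both. The log2 difference was 1.38 (SE 0.28) for DOCK10 and 1.27 (SE 0.27) for BRWD3.

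The condensin subunit SMC4, which compacts chromosomes, was at 18.4, 28.6 and 26.9 CPM in LN against 10.3, 9.12 and 10.6 CPM in HF (log2 difference 1.299, SE 0.28). MALT1, a protease of the lymphocyte NF-kappaB pathway, was at 31.7, 36.5 and 31.6 CPM against 15.0, 16.2 and 17.9 CPM (1.02, SE 0.24). In both genes the lowest LN library exceeded the highest HF library. The 12 leading genes also included the adhesion receptor ADGRV1 (log2 difference 2.35), the ubiquitin ligase MARCH1 (0.96), the O-GlcNAc transferase OGT (0.94), the actin-binding PPP1R9A (0.90), SBNO1 (0.86) and the splicing factor PRPF38B (0.91).

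**Figure D1:**
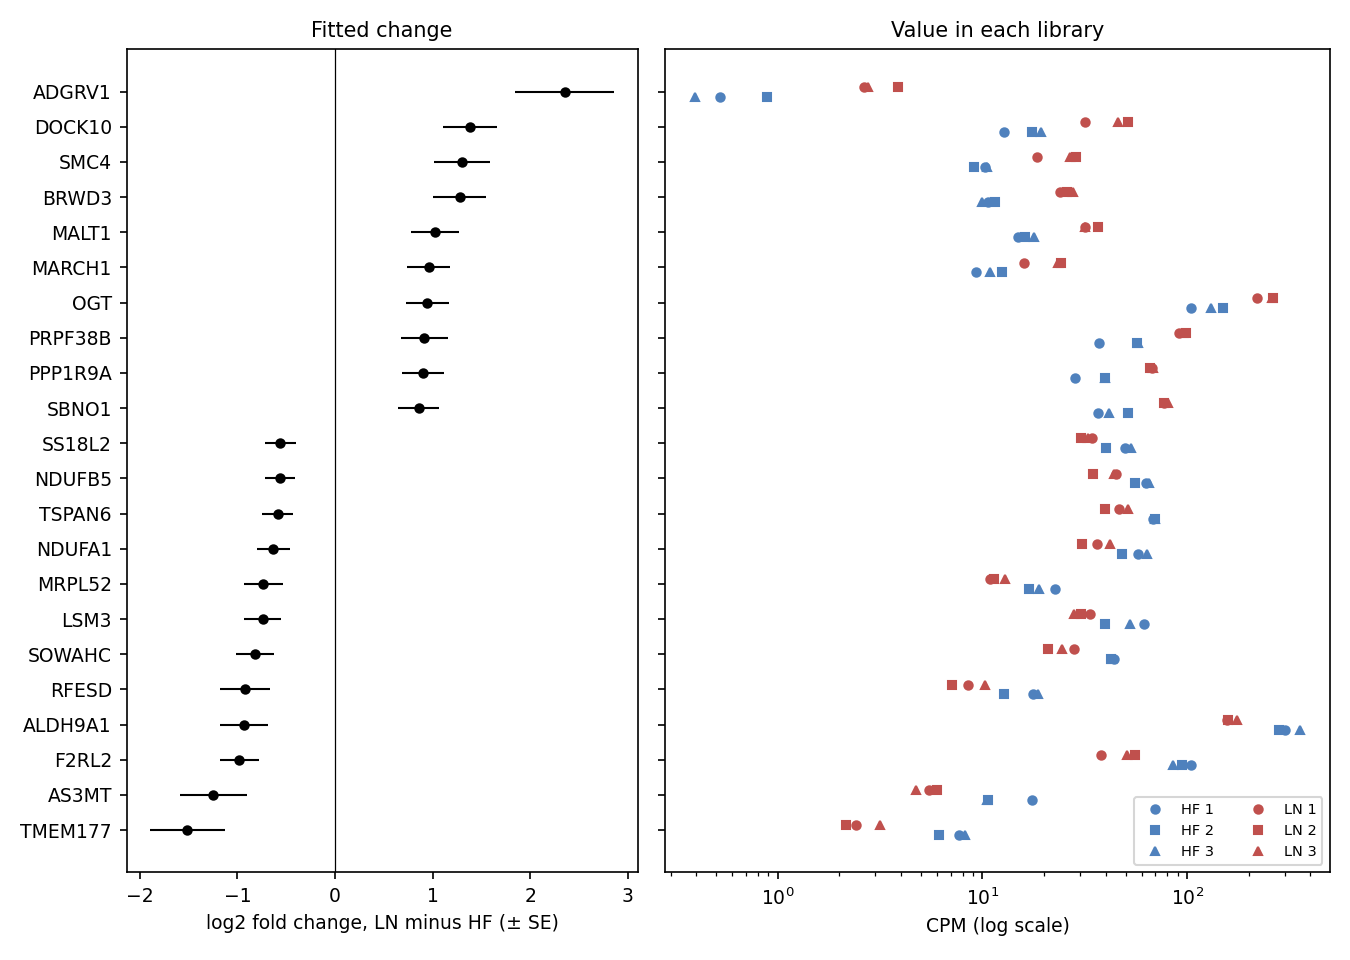
Genes with the smallest p in each direction (10 higher with LN, 12 higher with HF): fitted log2 difference LN minus HF with its SE (left) and CPM on a log axis in each of the 6 colon libraries (right; red LN, blue HF, marker shape the library number). The LN and HF points of every gene plotted are separate, with log2 differences from -1.51 to 2.35, and no adjusted p is under 0.05.

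The genes with the smallest p among those higher with HF were shorter. The aldehyde dehydrogenase ALDH9A1, an enzyme of carnitine and GABA synthesis (chromosome 4, 85029914 to 85057650, forward strand), was at 157, 158 and 175 CPM in LN and 302, 280 and 354 CPM in HF. The thrombin receptor gene F2RL2 (chromosome 2, 85534188 to 85542062, reverse strand) was at 37.9, 55.3 and 50.8 CPM in LN and 105, 94.1 and 85.4 CPM in HF. Both were lower in every LN library than in any HF library, with log2 differences of -0.93 (SE 0.24) for ALDH9A1 and -0.98 (SE 0.20) for F2RL2. Complex I subunits NDUFB5 (-0.56) and NDUFA1 (-0.63), the mitochondrial ribosomal protein MRPL52 (-0.74) and the mitochondrial membrane protein TMEM177 (-1.51) were in this set. So were the arsenite methyltransferase AS3MT (-1.25), the Rieske-domain protein RFESD (-0.92), SOWAHC (-0.82), the RNA-binding LSM3 (-0.74), TSPAN6 (-0.59) and SS18L2 (-0.56).

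Of the 12 leading genes higher with LN, 5 passed 0.05 in the fit on 6 libraries (among them DOCK10 with an adjusted p of 0.0497, BRWD3 with 0.0379, SMC4 with 0.0478 and MALT1 with 0.0424) and 9 in DESeq2. Of the 12 higher with HF, 2 passed with 6 libraries (0.0494 for F2RL2 and 0.0466 for ALDH9A1) and 10 in DESeq2. Both refits, and the gap between the diets in these genes, rest on the LN and HF libraries that chose them. They are therefore no separate support. The median length was 9590 bases for the first 12 and 1550 bases for the other 12, beside 3731 bases for all tested genes. With the length trend of each library removed, DOCK10 differed by 0.87, BRWD3 by 0.87, OGT by 0.76, ALDH9A1 by -0.90, F2RL2 by -0.995 and NDUFA1 by -0.35. The part of gene length in these differences was otherwise not tested.

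Set beside the low-fibre diet, the same fit gave the 12 genes higher with LN log2 differences of 0.74 to 1.57 for LN minus LF and of -1.51 to 0.54 for HF minus LF. HN minus HF, the other contrast that adds NCG, gave them 0.19 to 2.34. For the 12 higher with HF, LN minus LF ranged from -0.93 to -0.14, HF minus LF from -0.20 to 0.79 and HN minus HF from -1.13 to -0.30. These contrasts share the LN or HF libraries with the comparison that chose the genes, and no gene passed an adjusted p of 0.05 in any of them by edgeR (0.000% each). At an unadjusted p under 0.05 there were 2010 genes (13.3%) for LN minus LF, 3071 (20.4%) for HF minus LF and 1915 (12.7%) for HN minus HF. LF 2 and HN 1, which held little epithelial RNA, enter the LF and HN means.

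Smooth muscle genes differed most in size between the diets, and the difference lay in LN 1 and LN 2. The enteric actin ACTG2 was at 14200, 7141 and 87.1 CPM in LN and 156, 192 and 217 CPM in HF. The myosin heavy chain MYH11 was at 17510, 11140 and 461 CPM in LN and 335, 652 and 631 CPM in HF. The intermediate filament gene DES was at 7920, 4847 and 37.9 CPM in LN and 81.5, 102 and 95.3 CPM in HF, and the calcium store protein CASQ2 at 58.8, 22.4 and 2.94 CPM against 2.15, 1.65 and 4.08 CPM. In these genes the groups overlapped because LN 3 lay among or below the HF libraries. Of the 20 genes, 19 had a positive difference (median 3.42), 18 had an unadjusted p under 0.05 (5.88% of all genes did, higher with LN), and none was separate between the diets. Without LN 1 and LN 2 the median was -0.45. LF libraries averaged 10.05 to 12.06 log2 CPM on this list and HN libraries 6.43 to 11.76, so muscle content varied within HN as well. In bulk tissue, fewer cells of a type and less RNA per cell cannot be told apart. Whether the full wall or only the mucosa was dissected is not given in the sources used here. Its part in the muscle values was not tested.

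Genes of the other layers of the gut wall were partly split in the same way. The neural crest factor HAND2 was at 58.9, 25.2 and 4.995 CPM in LN and 4.68, 6.95 and 4.64 CPM in HF, and the matrix protein gene POSTN at 363, 145 and 15.8 CPM against 11.6, 19.0 and 18.1 CPM. The neuronal transcription factor PHOX2A was scarce, at 0.803, 0.735 and 0.944 CPM in LN and 0.130, 0.118 and 0.396 CPM in HF. The enteric nervous system list had a median of 0.78 (16 of 19 positive, and 2, or 10.5%, separate with LN above, beside 15.4% of all genes). It was 0.20 without LN 1, 0.42 without HF 1 and -0.12 without LN 1 and LN 2. The fibroblast list had a median of 0.32 (12 of 17 positive), which was 0.07 without LN 1, 0.17 without LN 2, 0.16 without HF 1, 0.52 without LN 3 and -0.26 without LN 1 and LN 2, with the elastic fibre gene MFAP4 at 1.92 and the pericyte receptor PDGFRB at -0.52. Endothelial genes had a median of -0.09. The adipocyte median of 0.00 rested on single libraries: it was 0.47 without HF 3 (13 of 18 positive) and -0.56 without LN 2 (14 of 18 negative).

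**Figure D2:**
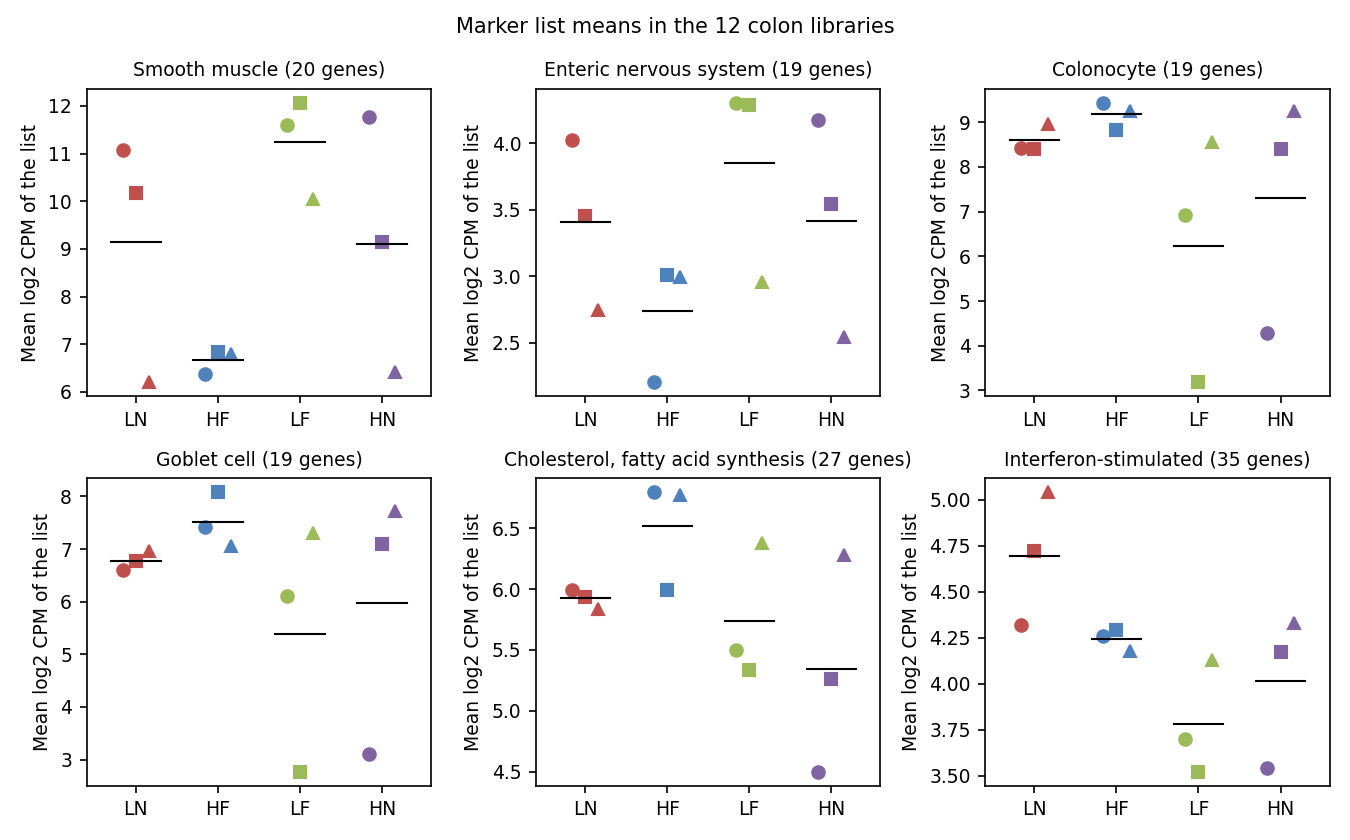
Mean log2 CPM of 6 gene lists in each of the 12 colon libraries by diet (points, marker shape the library number; bars, diet means; each panel has its own axis). LN 1 and LN 2 lie near 11 and 10 for smooth muscle and LN 3 near 6 with HF, while the lipid synthesis list is at 5.84 to 5.995 in LN and 5.99 to 6.80 in HF.

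Epithelial lists had negative medians in the fit of diet means. Every one of the 19 colonocyte genes had a negative difference, with a median of -0.65, and 9 of the 19 were separate with LN below, where 13.6% of all genes were. The chloride-bicarbonate exchanger SLC26A3 was at 1792, 1819 and 1711 CPM in LN and 4880, 2000 and 2099 CPM in HF. The actin bundler VIL1 was at 302, 297 and 490 CPM in LN and 861, 571 and 564 CPM in HF, and the lectin LGALS4 at 417, 588 and 767 CPM against 1086, 888 and 1017 CPM. For all 3 genes, as for the carbonic anhydrase CA4 (13.02, 7.60 and 12.7 CPM against 26.02, 19.95 and 15.96 CPM), no LN library reached the lowest HF library. None of the 19 had an unadjusted p under 0.05, and the smallest adjusted p was 0.688 by edgeR on the 12 libraries. In the edgeR fit on 6 libraries, 11 of the 19 had an unadjusted p under 0.05. So did 11 of 19 goblet cell genes and 22 of 30 replication and mitosis genes, beside 26.1% of all genes. In that fit 0 genes of these lists passed an adjusted p of 0.05.

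Goblet cell genes, which make and package mucus, gave the lowest list median, -0.90, with all 19 negative and 10 separate with LN below (13.6% of all genes). The trefoil peptide TFF3 was at 189, 181 and 250 CPM in LN and 412, 665 and 332 CPM in HF, and SPINK4 at 57.5, 72.2 and 107 CPM against 190, 358 and 105 CPM. The gel-forming mucin MUC2, added after its values were seen, was at 805, 1329 and 990 CPM against 1400, 4013 and 1038 CPM. The secretory factor CREB3L1 was at 45.7, 54.7 and 58.4 CPM against 72.1, 162 and 68.9 CPM. HF 2 was the highest library for each of these 4 genes, while LN 3 and HF 3 lay close together for SPINK4 and MUC2. Without HF 2 the goblet median was -0.42 and no longer the lowest, with lipid synthesis at -0.80 and colonocyte genes at -0.78. Without LN 1 and LN 2 it was -0.74, and that of colonocyte genes -0.25.

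Junction genes had a median of -0.59 (23 of 25 negative, and 13 separate with LN below beside 13.6% of all genes). Among them beta-catenin, CTNNB1, which anchors adherens junctions, was at 361, 356 and 335 CPM in LN and 408, 399 and 402 CPM in HF. CTNNB1 was called by DESeq2 (adjusted p 0.0218), with a log2 difference of only -0.20 in the edgeR fit. Ion and water transport genes had a median of -0.45 (22 of 24 negative). The sodium channel subunit SCNN1G, the inducible sodium uptake route of the distal colon, was at 0.00, 0.245 and 0.167 CPM in LN and 5.40, 3.65 and 0.00 CPM in HF, and the goblet cell channel BEST2 at 0.344, 0.919 and 0.333 CPM against 5.66, 6.42 and 0.0566 CPM. Both genes were present in HF 1 and HF 2 and near 0 in HF 3, so the diets overlapped. Leaving out LN 1 and LN 2 gave medians of -0.23 for junction and -0.22 for ion and water transport genes, and leaving out LN 3 gave -0.70 for the latter.

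With the smooth muscle score of each library as a covariate, the medians of these epithelial lists were positive: 1.16 for colonocyte, 0.64 for goblet, 0.76 for junction and 0.79 for ion and water transport genes. With a colonocyte score added as a further covariate they were -0.06, -0.41, -0.21 and -0.06 in the same order. All 19 goblet genes were negative in that fit. The score is the mean of the colonocyte list itself, so a median near 0 for that list was set in advance. The direction of the epithelial lists therefore depended on the covariates, and no gene passed an adjusted p of 0.05 in either fit. Crypt and stem cell genes had a median of -0.33 (10 of 16 negative) and enteroendocrine genes of -0.15 (11 of 17 negative; 0.02 without LN 2 and -0.44 without LN 3). Small intestinal markers summed to 64.8 to 176 CPM in LN and 69.7 to 169 CPM in HF, far below the 10400 to 23810 CPM of the colonocyte list.

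Replication and mitosis genes were mostly lower with LN. The list had a median of -0.56, with 27 of 30 negative and 13 separate with LN below (13.6% of all genes). The replicative helicase subunit MCM7 was at 59.01, 59.2 and 60.8 CPM in LN and 138, 78.3 and 99.2 CPM in HF, and MCM6 at 91.6, 84.9 and 71.3 CPM against 178, 92.2 and 123 CPM. Thymidylate synthase, TYMS, was at 37.0, 75.2 and 39.9 CPM against 173, 53.2 and 123 CPM, with LN 2 above HF 2. The spindle motor KIF11 went the other way, at 16.9, 17.4 and 18.4 CPM against 11.6, 8.95 and 11.8 CPM. Without LN 1 and LN 2 the list median was -0.49. It was 0.49 with the smooth muscle covariate and -0.31, with 26 of 30 negative, with the smooth muscle and colonocyte covariates.

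**Figure D3:**
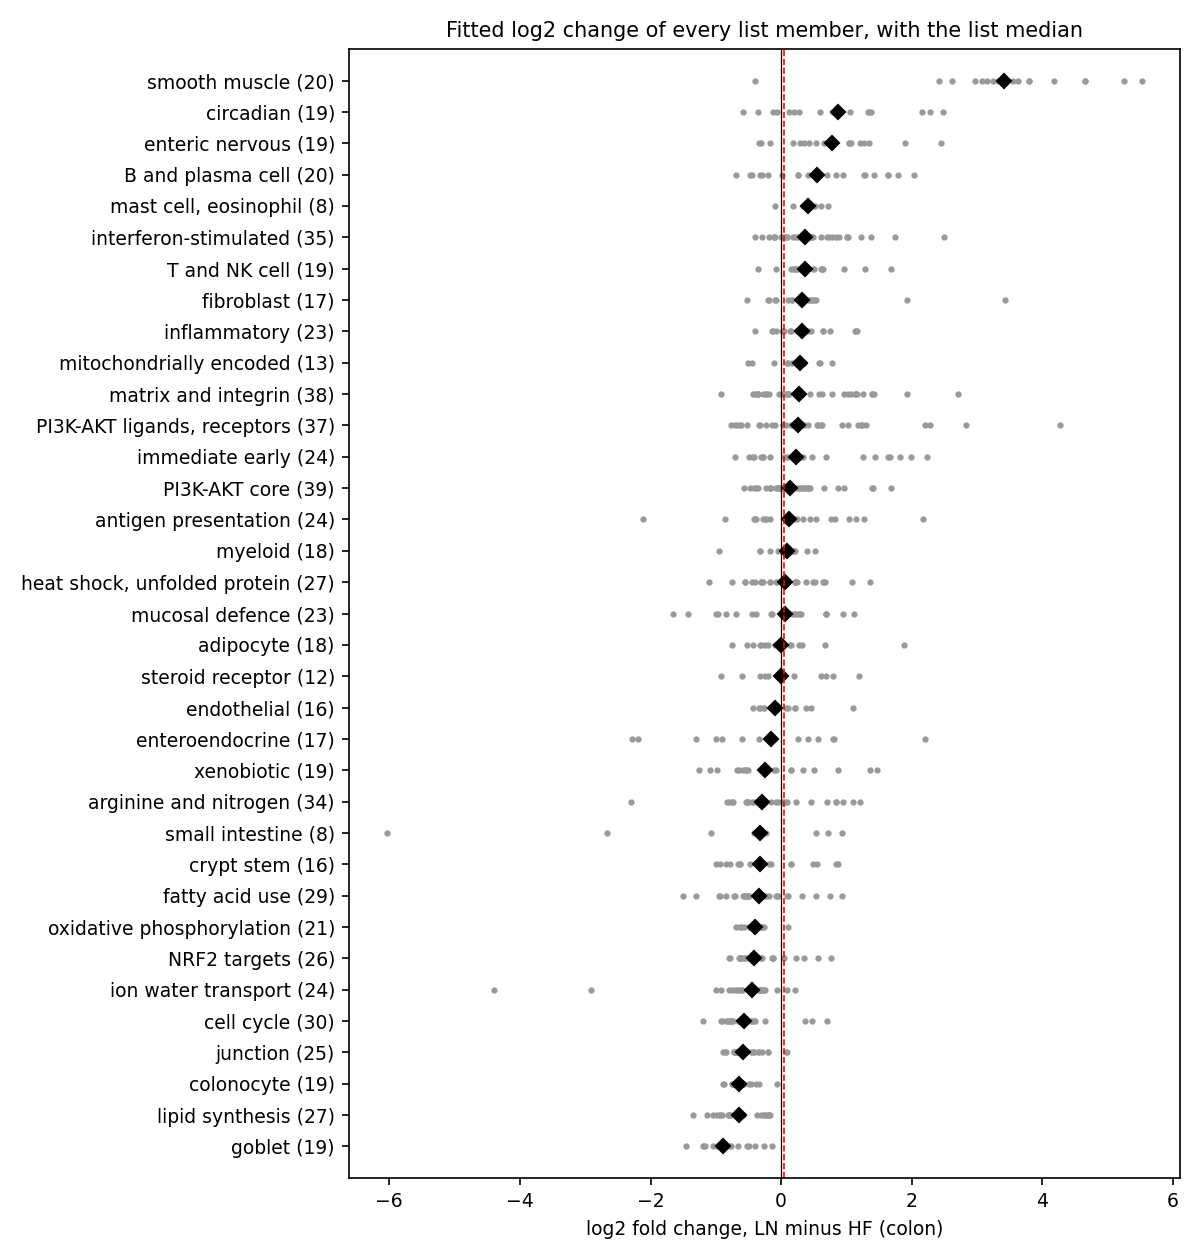
Fitted log2 difference LN minus HF of every tested member of the 35 lists (grey points; number of genes in brackets), with the list median (black diamond), 0 (solid line) and the median of all tested genes, 0.04 (dashed line). Smooth muscle stands at 3.42 and the goblet, lipid synthesis and colonocyte lists at -0.90, -0.65 and -0.65.

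Lipid synthesis was the metabolic list with the lowest median. All 27 genes of cholesterol and fatty acid synthesis had a negative difference, with a median of -0.65, and 10 were separate with LN below (13.6% of all genes). None had an unadjusted p under 0.05 by edgeR on the 12 libraries. In the edgeR fit on 6 libraries 18 of the 27 had one, beside 26.1% of all genes, and 0 passed an adjusted p of 0.05. The sterol sensor INSIG1 was at 89.2, 58.0 and 83.8 CPM in LN and 178, 131 and 132 CPM in HF. The sterol isomerase EBP was at 26.7, 17.9 and 25.9 CPM in LN and 61.0, 25.8 and 58.5 CPM in HF. Phosphomevalonate kinase, PMVK, was at 11.5, 13.1 and 12.8 CPM against 18.0, 18.0 and 21.2 CPM, and squalene synthase, FDFT1, at 120, 85.0 and 101 CPM against 189, 115 and 177 CPM. The LN libraries were alike for the list as a whole, at 5.995, 5.94 and 5.84 mean log2 CPM, while HF 2 at 5.99 lay beside them and HF 1 and HF 3 stood at 6.80 and 6.77. The median was -0.71 without LN 1 and LN 2, -0.11 with the smooth muscle covariate and -0.38 with the colonocyte covariate added.

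Genes that take up and oxidise short-chain and other fatty acids had a median of -0.34 (23 of 29 negative, and 9 separate with LN below beside 13.6% of all genes). The 3 with an unadjusted p under 0.05, where 2.05% of all genes were under it and higher with HF, belong to mitochondrial beta-oxidation. The trifunctional protein subunits HADHB and HADHA were at 178, 158 and 176 CPM and at 202, 202 and 228 CPM in LN, against 221, 283 and 222 CPM and 307, 376 and 271 CPM in HF. The acyl-CoA dehydrogenase ACADVL was at 106, 106 and 133 CPM against 171, 168 and 167 CPM. All 3 genes were separate between the diets, and HADHB was called by DESeq2 (adjusted p 0.0324). The transporter SLC16A4 was at 2.58, 2.45 and 2.55 CPM in LN and 0.651, 2.41 and 0.906 CPM in HF. The list median was -0.13 without LN 1 and LN 2 and -0.52 without LN 3.

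Nuclear genes of oxidative phosphorylation had a median of -0.41, with 20 of 21 negative and 13 separate with LN below (13.6% of all genes). NDUFA1 was at 36.5, 30.8 and 42.0 CPM in LN and 57.6, 48.0 and 63.7 CPM in HF, and NDUFA9, also of complex I, at 110, 89.4 and 106 CPM against 191, 124 and 177 CPM. NDUFA8 was at 52.7, 33.3 and 44.1 CPM against 68.8, 46.0 and 67.5 CPM, with LN 1 above HF 2. COX6C, of cytochrome c oxidase, was at 123, 108 and 121 CPM against 144, 152 and 159 CPM. These are short genes, with a median length of 982 bases, and the list median was -0.20 with the length trend removed and -0.40 without LN 1 and LN 2. The 13 genes encoded in the mitochondrial genome differed by gene: 10 were positive, with a median of 0.29, but their summed level was lower in every LN library, at 66980 to 79150 CPM against 85770 to 100400 CPM in HF. ND4 was at 2051, 2082 and 2254 CPM in LN against 1183, 1576 and 1497 CPM, ND2 at 1203, 1494 and 1509 CPM against 634, 895 and 923 CPM, and ND4L had a difference of 0.60, while COX3 was at 15330, 12010 and 15590 CPM against 18920, 19920 and 22310 CPM. Their median was 0.13 without LN 1 and LN 2 and 0.16 to 0.19 without LN 1, LN 2, HF 1 or HF 3 alone.

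CPS1, the enzyme NCG acts on, was scarce in these libraries. It was at 0.115, 0.613 and 0.00 CPM in LN and 0.00, 3.30 and 0.283 CPM in HF, near 0 in 5 of the 6 libraries. NAGS, which makes the natural CPS1 activator, was at 5.39, 6.19 and 6.33 CPM in LN and 14.4, 8.95 and 8.55 CPM in HF, separate between the diets with a difference of -0.83 (SE 0.88). Argininosuccinate synthase, ASS1, was at 327, 78.7 and 178 CPM against 58.0, 45.1 and 169 CPM, a difference of 1.10 (SE 0.67) that overlapped, and the arginase ARG2 at 16.3, 19.8 and 26.5 CPM against 26.4, 12.2 and 23.3 CPM.

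Among all 34 genes of arginine, urea and polyamine metabolism, 22 were negative and 12 positive, with a median of -0.29. Spermine oxidase, SMOX, was at 7.97, 7.05 and 5.27 CPM in LN and 3.97, 4.18 and 4.36 CPM in HF, which did not overlap. The mitochondrial ornithine carrier SLC25A15 was at 11.01, 10.4 and 12.9 CPM against 19.5, 18.9 and 21.5 CPM, also separate, and ornithine aminotransferase, OAT, at 84.8, 122 and 113 CPM against 156, 178 and 102 CPM.

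Core PI3K-Akt genes were divided. The catalytic subunit PIK3CA was at 42.5, 32.6 and 27.4 CPM in LN and 9.69, 12.9 and 9.23 CPM in HF, a log2 difference of 1.69 (SE 0.76). The S6 kinase RPS6KB1, which acts downstream on translation, was at 63.3, 61.5 and 63.2 CPM against 30.8, 40.4 and 31.8 CPM (0.87, SE 0.26). The mTORC2 scaffold RICTOR was at 37.9, 36.1 and 30.7 CPM against 11.6, 18.4 and 9.91 CPM (1.39, SE 0.62), and the p53 ligase MDM2 at 72.7, 73.3 and 81.4 CPM against 50.9, 58.9 and 60.4 CPM (0.42, SE 0.16). AKT1 itself was at 158, 146 and 158 CPM in LN and 174, 153 and 193 CPM in HF (-0.17, SE 0.17). PIK3CA, RPS6KB1, RICTOR and MDM2 were higher in all 3 LN libraries, and AKT1 overlapped.

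Over the 39 core genes, 25 (64.1%, beside 53.0% of all genes) were positive and 14 negative, with a median of 0.13. Of the 39, 10 (25.6%) were separate with LN above and 4 (10.3%) with LN below, beside 15.4% and 13.6% of all genes. The median was 0.07 without LN 2 and 0.23 without LN 3. PIK3CA and RPS6KB1 passed 0.05 in the edgeR fit on 6 libraries (adjusted p 0.0379 and 0.0494). Their values against the low-fibre diet were 0.09 for LN minus LF and -1.59 for HF minus LF in PIK3CA, and 0.71 and -0.16 in RPS6KB1. PIK3CA differed by 1.27 with the length trend removed, by 0.86 with the smooth muscle covariate and by 1.37 without LN 1 and LN 2. The list is made of long genes (median 6092 bases), and its median was -0.07 with the length trend removed.

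Growth factor ligands and receptors that feed the pathway had a median of 0.25, with 26 of 37 positive and 8 (21.6%) separate with LN above, beside 15.4% of all genes. IGF1 was at 52.1, 36.5 and 37.4 CPM in LN and 13.99, 14.3 and 23.1 CPM in HF, and the receptor ERBB4 at 2.01, 5.21 and 4.88 CPM against 0.325, 1.001 and 1.13 CPM. FGF7, a mesenchymal growth factor for epithelium, was at 8.60, 7.60 and 3.83 CPM against 0.846, 1.94 and 1.53 CPM. The 3 genes were separate between the diets. The epidermal growth factor family ligand BTC was at 94.5, 69.3 and 1.83 CPM in LN and 0.846, 3.18 and 4.47 CPM in HF, the pattern of the muscle genes. The list median was 0.02 without LN 1 and LN 2 and 0.39 without LN 3.

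Matrix and integrin genes had a median of 0.27 (27 of 38 positive), which was 0.09 without HF 1, 0.13 without LN 1, 0.52 without LN 3 and -0.07 without LN 1 and LN 2. The leukocyte integrin ITGA4 was at 19.3, 37.7 and 43.2 CPM in LN and 6.18, 11.8 and 8.38 CPM in HF, with LN 3 the highest. The TGF-beta-activating integrin ITGB8 was at 47.4, 58.7 and 70.3 CPM against 22.1, 34.4 and 27.1 CPM. ITGA1, by contrast, was at 391, 213 and 49.5 CPM against 29.9, 32.3 and 37.6 CPM, highest in the libraries rich in muscle RNA.

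Clock genes had the highest list median after smooth muscle. Of 19 genes, 15 were positive with a median of 0.87, and 9 were higher with LN at an unadjusted p under 0.05 (5.88% of all genes). The output factor DBP was at 50.2, 25.4 and 14.4 CPM in LN and 2.15, 9.60 and 4.47 CPM in HF, a log2 difference of 2.47 (SE 0.68). The repressor BHLHE41 was at 44.0, 42.6 and 28.0 CPM against 11.4, 21.6 and 12.2 CPM, and the period gene PER3 at 51.6, 61.1 and 43.6 CPM against 15.9, 36.1 and 23.3 CPM. TEF, a relative of DBP, was at 126, 95.6 and 52.7 CPM against 23.7, 55.3 and 30.7 CPM. DBP, BHLHE41 and PER3 were separate between the diets and TEF overlapped, with LN 3 just below HF 2.

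The nuclear receptors NR1D2 and RORA and the activator ARNTL were added after their values were seen. NR1D2 was at 204, 152 and 102 CPM in LN and 43.3, 86.6 and 46.4 CPM in HF. RORA was at 40.1, 38.3 and 30.1 CPM against 7.22, 8.65 and 8.49 CPM, and it passed 0.05 in the edgeR fit on 6 libraries (adjusted p 0.0359). ARNTL, which peaks opposite to DBP in the daily cycle, was at 13.99, 15.4 and 13.4 CPM against 24.5, 19.8 and 19.9 CPM, lower in every LN library. The list median was 0.39 without LN 1 and LN 2, with 14 of 19 positive, and 0.30 with the smooth muscle covariate. The hour of sampling is not given in the sources used here, and its part in these differences was not tested.

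**Figure D4:**
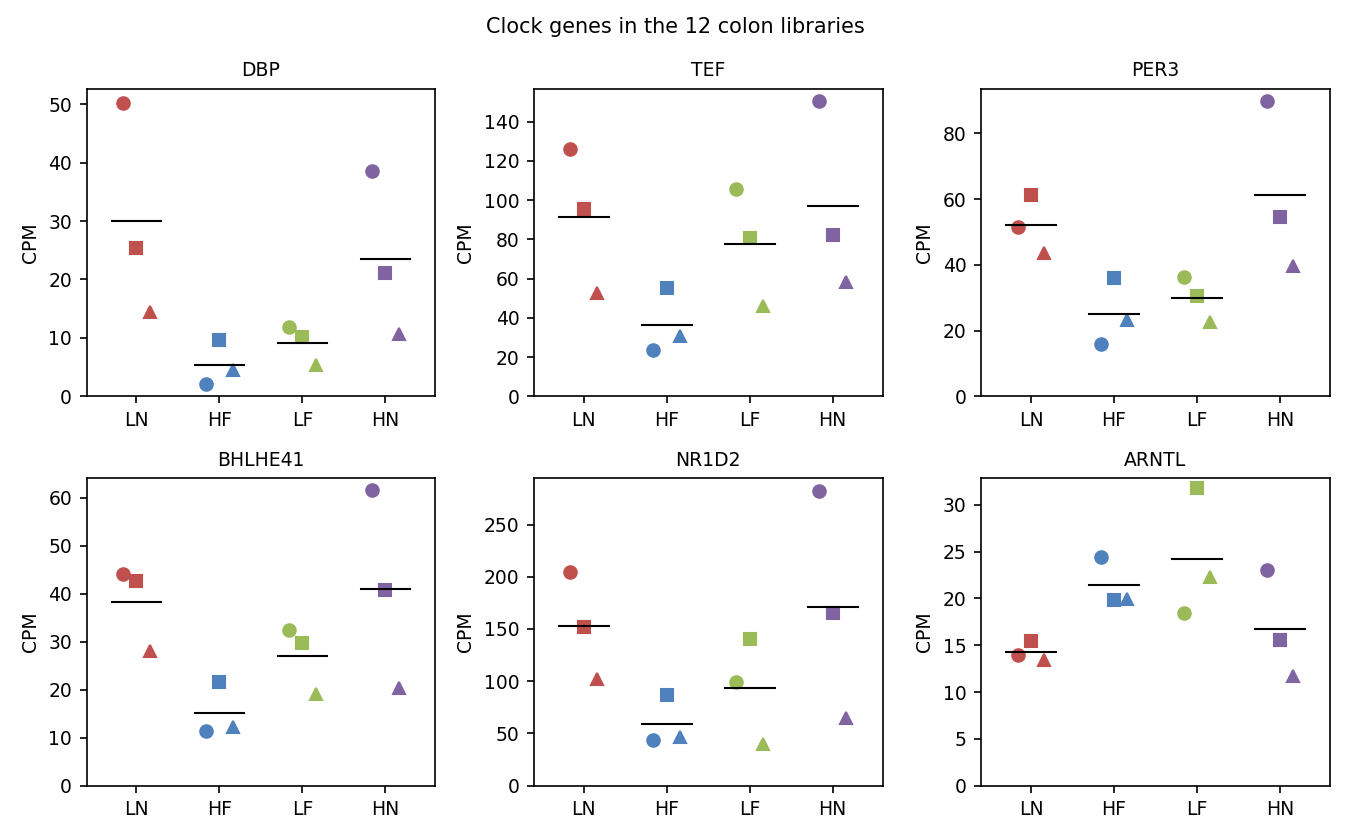
CPM of 6 clock genes in each of the 12 colon libraries by diet (points, marker shape the library number; bars, diet means; linear axes from 0). DBP is at 14.4 to 50.2 CPM in LN and 2.15 to 9.60 CPM in HF, and ARNTL at 13.4 to 15.4 CPM in LN and 19.8 to 24.5 CPM in HF.

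Interferon-stimulated genes stood highest in LN 3. Of 35 genes 29 were positive, with a median of 0.36, and 7 (20%) were separate with LN above, near the 15.4% of all genes. The RNA sensor IFIH1 was at 15.1, 18.9 and 18.1 CPM in LN and 8.002, 10.7 and 9.40 CPM in HF, a difference of 0.89 (SE 0.24). The RNA-activated kinase EIF2AK2 was at 78.5, 67.6 and 94.4 CPM against 34.7, 53.8 and 45.8 CPM, and PARP14 at 50.6, 66.2 and 77.6 CPM against 30.4, 37.5 and 28.6 CPM. IDO1, which degrades tryptophan, was at 0.746, 7.35 and 5.27 CPM against 0.390, 0.765 and 1.19 CPM, with LN 1 among the HF libraries. Without LN 1 and LN 2 the list median was 0.78, with 34 of 35 positive, and with the smooth muscle covariate it was 0.63. The median rested on LN 3: without it, 21 of 35 were positive with a median of 0.10.

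T and NK cell genes had a median of 0.36 (17 of 19 positive) and B and plasma cell genes of 0.55 (14 of 20 positive). The T cell checkpoint CTLA4 was at 1.78, 3.98 and 2.33 CPM in LN and 0.325, 0.589 and 1.59 CPM in HF, and the B cell scaffold BANK1 at 14.2, 33.9 and 24.9 CPM against 12.7, 16.3 and 12 CPM. The macrophage scavenger receptor CD163 was at 43.1, 63.3 and 43.4 CPM against 119, 114 and 57.3 CPM. Its mean was lower in LN, but LN 2 lay above HF 3. The myeloid list that holds it had a median of 0.09. Antigen presentation genes had a median of 0.12. Within it SLA-2 was at 382, 83.7 and 302 CPM against 1120, 1613 and 599 CPM and SLA-5 at 0.573, 1.23 and 4.05 CPM against 0.781, 0.177 and 0.340 CPM. These class I genes are near-identical copies that can share reads, so the split between them is uncertain. How such reads were counted was not examined. Inflammatory genes had a median of 0.31 (19 of 23 positive), with the monocyte chemokine CCL2 at 49.8, 72.4 and 77.5 CPM against 18.5, 22.7 and 47.8 CPM. With LN 1 and LN 2 left out, the medians were 0.75 for T and NK cell, 0.47 for B and plasma cell, 0.73 for antigen presentation and 0.33 for inflammatory genes. Single libraries decided these lists. Without LN 3 the T and NK cell median was 0.07 (12 of 19 positive) and the antigen presentation median -0.34 (8 of 24 positive). The B and plasma cell median was -0.09 without LN 2 (8 of 20 positive). Inflammatory genes had medians of 0.10 without HF 2, 0.11 without LN 2 and 0.15 without HF 1, and myeloid genes ranged from -0.06 without LN 2 to 0.33 without LN 1.

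Stress and early response genes were mixed. Immediate early genes had a median of 0.22 (16 of 24 positive). EGR3 was at 2.64, 3.92 and 2.16 CPM in LN and 0.716, 1.001 and 1.47 CPM in HF, while ATF3 at 11.8, 102 and 19.7 CPM against 7.48, 13.5 and 7.25 CPM and NR4A3 at 4.24, 11.6 and 2.33 CPM against 1.63, 1.18 and 2.32 CPM were highest in LN 2. IER3 was at 19.7, 16.9 and 4.995 CPM against 3.97, 3.24 and 5.89 CPM. Heat shock and unfolded protein genes had a median of 0.06 (-0.05 without LN 3, 0.14 without HF 3): HSP70.2, whose near-identical copies can share reads, was at 141, 167 and 212 CPM against 48.6, 44.4 and 110 CPM, and the mitochondrial chaperonin HSPE1 at 192, 117 and 138 CPM against 299, 194 and 265 CPM. Targets of NRF2, the oxidative stress factor, had a median of -0.42 (21 of 26 negative), with ferritin FTH1 at 2298, 2002 and 2297 CPM against 4601, 2651 and 3053 CPM. NFE2L2, which encodes NRF2, was at 176, 156 and 194 CPM against 119, 121 and 116 CPM. The immediate early median was -0.06 without LN 1 and LN 2, -0.06 without LN 2 alone and 0.14 without HF 1. The NRF2 median was -0.26 without LN 1 and LN 2.

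The same diets were compared in the ileum, in separate libraries; whether the same sows gave both tissues is not given in the sources used here. In a fit of all 24 libraries, the difference between the tissues in LN minus HF passed 0.05 for 0 of 15675 genes (0.000%) by edgeR, with 593 (3.78%) at an unadjusted p under 0.05. The 5 genes with the smallest p were LPGAT1 (colon minus ileum -1.15), CDO1 (-6.00), SLC38A3 (-6.60), LOC106510546 (-2.08) and the pyruvate carboxylase gene PC (-3.66). LPGAT1, a lysophospholipid acyltransferase, was at 120, 110 and 123 CPM in colon LN and 106, 125 and 125 CPM in colon HF, but at 227, 252 and 219 CPM in ileum LN and 106, 92.6 and 118 CPM in ileum HF. In the ileum alone, LN against HF gave 22 genes higher with LN (0.140%) and 0 higher with HF (0.000%), with 2664 (17.0%) at an unadjusted p under 0.05.

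Among the genes described here, IFIH1 and PPP1R9A rose in the ileum with LN (log2 difference 1.96 and 1.33, adjusted p 0.0487 each by edgeR). IFIH1 was at 42.3, 27.1 and 57.3 CPM in ileum LN and 10.5, 14.6 and 7.45 CPM in ileum HF. PIK3CA was at 32.6, 25.1 and 61.0 CPM against 9.39, 16.1 and 11.6 CPM in the ileum, and RPS6KB1 at 77.1, 70.4 and 76.2 CPM against 34.7, 42.7 and 41.3 CPM. In the ileum, where the share of all genes that separate was not counted, both were again separate with LN above. DOCK10 was not: it stood at 34.6, 51.6 and 25.9 CPM in ileum LN and 20.6, 53.8 and 31.6 CPM in ileum HF. None of these 5 genes passed an adjusted p of 0.05 for the tissue difference itself.

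By list, clock genes had a median of 0.85 in the ileum (15 of 19 positive) beside 0.87 in the colon, and interferon-stimulated genes 0.74 (29 of 35) beside 0.36. Lipid synthesis had -0.52 beside -0.65 and cell cycle genes -0.89 beside -0.56. Core PI3K-Akt genes had -0.05 in the ileum (16 of 39 positive) beside 0.13 in the colon (25 of 39). The higher PIK3CA and RPS6KB1 in ileum LN therefore did not extend to that list. The ligand and receptor list had 0.66 (31 of 37) beside 0.25 (26 of 37). B and plasma cell genes had -1.47 beside 0.55, T and NK cell genes -0.88 beside 0.36, adipocyte genes 3.45 beside 0.00 and goblet genes 0.21 beside -0.90. Smooth muscle genes had 1.44 beside 3.42, with 20 of 20 positive in the ileum. Which ileum libraries carried that median was not examined. The difference between tissues in a list was not tested.

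**Figure D5:**
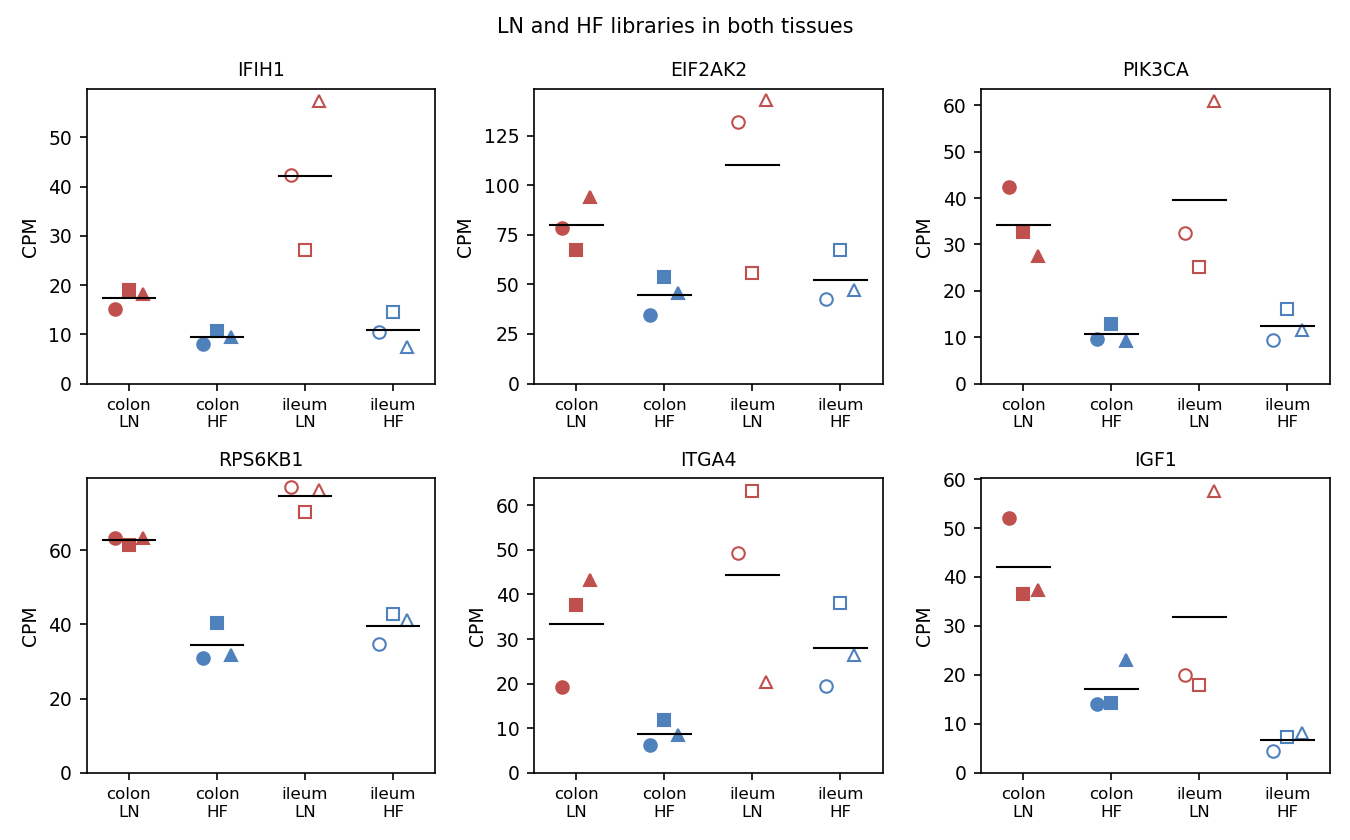
CPM of 6 genes in the LN (red) and HF (blue) libraries of the colon (filled) and ileum (open), with group means as bars and linear axes from 0. RPS6KB1 is at 61.5 to 63.3 CPM in colon LN and 30.8 to 40.4 CPM in colon HF, and at 70.4 to 77.1 CPM and 34.7 to 42.7 CPM in the ileum, while ITGA4 overlaps in the ileum.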

How the data were processed

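Poly(A) RNA was reverse transcribed from random primers, amplified by PCR and sequenced in read pairs, per the labels' protocols; the submitters' processing notes name fastp 0.22.0, HISAT2 2.1.0, HTSeq 0.9.1 and the Sscrofa11.1 build. The deposited table holds raw read counts for 20674 genes in 24 libraries. Strand use is not given in the sources used here, so antisense and overlapping genes may share reads, and PCR duplicates cannot be told from separate molecules. All gene IDs matched RefSeq's Sscrofa11.1 table, the source of coordinates. FPKM columns deposited by the authors follow from the counts and were not used.

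Genes passing edgeR's filterByExpr (15075 in colon) were scaled by TMM and tested with the edgeR 4.0.16 quasi-likelihood F-test under R 4.3.3, with 4 diet means, and adjusted by Benjamini-Hochberg. CPM values are TMM-scaled; mean log2 values add a prior count of 2. SE is the log2 difference divided by the square root of F. The common biological coefficient of variation was 0.472. Alternatives used limma 3.58.1 (voom) and DESeq2 1.42.0. The script was tested on simulated data. Named genes are the 12 with the smallest p in each direction (symbol given, mean log2 CPM above 0), members among the 4 smallest p of a list, and CPS1, NAGS, ASS1, ARG2, AKT1 and PIK3CA; others are marked, and 4 genes that the rule names are not reported here. The comparison and the 35 lists (844 genes, 764 tested) were chosen with earlier results of these data known, so lists are given as counts and medians without a test.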

Additional observations from a re-analysis of the deposited data

How the results depend on the processing

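The count of genes called between LN and HF in the colon was 0 in edgeR under other scalings, with no filter or at least 50 counts in 3 libraries, with voom, with the muscle and length adjustments, without each colon library in turn, and with either pair of libraries left out; it was 181 with the 6 libraries alone and 47 with DESeq2. The number at an unadjusted p under 0.05 was 1904 with DESeq2, 3788 with 6 libraries, 2859 without HN 1 and LF 2, 177 without LN 1 and LN 2, and 339 (without HF 1) to 1921 (without HN 1) with 1 library left out; it was 580 without HF 3, 663 without LN 1 and 532 without LN 2. The last pairs of libraries were chosen after seeing the data. The number called for the tissue difference was 0, and 1 (FAR2, adjusted p 0.0203 by edgeR, named after its values were seen) with only the 12 LN and HF libraries. The labels do not say that a replicate number is shared. Same-numbered LN and HF libraries correlated at -0.055, 0.149 and -0.067 in their deviations from the diet means, and only number 2 correlated best with its own number. With a replicate block, 0 genes were called and 1358 had an unadjusted p under 0.05.

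Of 2865 pairs of a named gene and a setting, 31 reversed direction; the cause was not tested. With the smooth muscle covariate these were NAGS (0.35), DES (-0.0084), HAND2 (-0.21), CA4 (0.36), VIL1 (0.85), LGALS4 (1.01), SLC26A3 (1.71), SPINK4 (0.58), TFF3 (0.26), CREB3L1 (0.21), MUC2 (0.93), TYMS (0.33) and BTC (-0.0469). With a colonocyte covariate added they were ACTG2 (-0.0446), DES (-0.29), HAND2 (-0.15) and BTC (-0.28). ACTG2 and DES are themselves part of the smooth muscle score. Without LN 1 and LN 2 they were ACTG2 (-1.12), DES (-1.30), MYH11 (-0.23), HAND2 (-0.12), POSTN (-0.0434) and BTC (-0.63). ARG2, at 0.02 in the report's fit, was -0.0314 with size factors, -0.0255 with upper quartile scaling, -0.0313 with DESeq2, -0.0144 with 6 libraries, and -0.25 (without HF 2) to 0.23 (without HF 1) with 1 library left out. CPS1, near 0 CPM, ranged from -4.23 (without LN 2) to 0.68 (without HF 2) with 1 library left out and was -7.30 without LN 1 and LN 2. Depth limits CPS1, SCNN1G, BEST2, PHOX2A and SLA-5, whose values rest on few counts.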

Other observations

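The genes in this paragraph were chosen after their values were seen. The ubiquitin ligase BIRC3 was at 118, 156 and 140 CPM in LN and 26.1, 47.2 and 43.5 CPM in HF, and the kinase MAP3K14 at 27.0, 34.2 and 26.5 CPM against 18.6, 21.1 and 16.9 CPM. The Toll-like receptor TLR10 was at 6.88, 9.56 and 6.44 CPM against 2.80, 3.59 and 3.45 CPM. Every LN library was above every HF library for these 3 genes, as for 15.4% of all genes. Of these, BIRC3 passed 0.05 in the edgeR fit on 6 libraries (adjusted p 0.0379). The RNA-processing genes TRA2A (119, 146 and 117 CPM against 56.4, 61.6 and 62.8 CPM), DDX5 (630, 699 and 595 CPM against 376, 391 and 374 CPM) and HNRNPH3 (137, 160 and 136 CPM against 79.1, 87.9 and 87.2 CPM) were also separate between the diets. TRA2A and HNRNPH3 passed 0.05 in the fit on 6 libraries (adjusted p 0.0379 and 0.0494).

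The fructose transporter SLC2A5 was at 16.9, 1.53 and 52.0 CPM in LN and 1.496, 2.001 and 1.87 CPM in HF. LN 1 and LN 3 were above every HF library and LN 2 was among them. DESeq2 gave it an adjusted p of 0.0435.

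Mucosal defence genes had a median of 0.06 (13 of 23 positive; -0.21 without LN 3 and -0.15 without HF 1) and mast cell and eosinophil genes of 0.42 (7 of 8 positive; 0.17 without LN 2). Xenobiotic genes had a median of -0.25 (12 of 19 negative; 0.02 without HF 1 and -0.48 without LN 3), with the efflux pump ABCG2 at 33.1, 28.1 and 41.7 CPM in LN and 90.2, 85.8 and 26.8 CPM in HF. The dioxin receptor AHR, on the same list, was at 65.0, 67.7 and 65.8 CPM against 41.2, 50.3 and 48.5 CPM and did not overlap. Steroid receptor genes had a median of -0.01 (6 of 12 positive), which ranged from -0.16 without LN 3 to 0.10 without LN 2 or HF 2.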
